A study of Mus musculus with 32 samples.

Results

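The 3 miRNAs miR-196a-5p, miR-196b-5p and miR-615-3p (mmu-miR-196a-5p, mmu-miR-196b-5p and mmu-miR-615-3p in the files) were examined out of the 1513 mouse miRNAs in the deposited table. Their genes lie in Hox clusters, and they were chosen by name with earlier results of these data known. They were followed through 32 small RNA-seq libraries of a mouse ovarian cancer study, in which extracellular vesicles (EVs) were taken up from moist organ surfaces by sheets of cellulose nanofibers (CNF). All mice were female athymic BALB/cSlc-nu/nu mice of 8 to 10 weeks at injection, which lack mature T cells, and the tumor cells were ID8-T6, a single subclone of the ID8 mouse ovarian epithelial line picked for its high spread in the peritoneal cavity. In the orthotopic (OT) model, cells were placed in the left ovarian bursa. Sheet EVs came from the liver surface (labelled diaphragm) and from the pelvic peritoneum, each on day 4 and day 0, with 5 libraries per group. Whether day 0 was before or after the cells were placed is not stated in the sources used here. In the intraperitoneal (IP) model, sampled on day 14, sheet EVs came from the peritoneum of tumor-bearing mice and of normal mice given no tumor cells. The tissues of that model were tumor tissue and normal ovary, and each group had 3 libraries.

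Hox genes sit in 4 clusters, and cells along the body axis switch on different stretches of them, so that cells of the hind part of the body keep a record of their position in the Hox genes they express. Several miRNAs are made from the same clusters and tend to be expressed in the same domains. The miR-196 family is encoded among the posterior Hox genes and represses Hox mRNAs, Hoxb8 being the best known, while miR-615 is made from an intron of Hoxc5.

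The sequences are shown because 2 of the 3 miRNAs are nearly the same molecule, which bears on every ratio given below. All 3 names were found in the RefSeq table (GRCm38.p6), and the capitals mark the seed, bases 2 to 8, which selects targets.
miR-196a-5p: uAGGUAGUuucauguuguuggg
miR-196b-5p: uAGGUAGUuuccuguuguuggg
miR-615-3p: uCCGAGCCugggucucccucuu
Counted from the 5′ end, miR-196b-5p differs from miR-196a-5p by the single substitution A12C, outside the seed. No other mature miRNA of the 1679 in the table had their seed at these positions, and 0 others had that of miR-615-3p. The authors' mapping allowed up to 2 mismatches, and how a read matching both miR-196 forms was assigned is not given in the sources used here.

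The mature miR-196a-5p is the same from 2 genes, Mir196a-1 at chr11:96265187-96265208 (plus strand), whose hairpin lies between Hoxb13 and Hoxb9, and Mir196a-2 at chr15:102973365-102973386 (plus strand), between Hoxc10 and Hoxc9 and inside an intron of the long Hoxc5 gene model. The mature miR-196b-5p comes from chr6:52230129-52230150 (minus strand), in an annotated exon of Hoxa9 and next to Hoxa10. The mature miR-615-3p comes from chr15:103014969-103014990 (plus strand), in an intron of Hoxc5 with Hoxc6 and Hoxc4 as its neighbours, 41.5 kb from Mir196a-2. Thus the miR-196 genes are posterior in their clusters, whereas miR-615 is not among the posterior Hox genes. The other strand of the hairpin differs between the miR-196a genes and so names the gene it came from, and both are shown for that reason.
miR-196a-1-3p: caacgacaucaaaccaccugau
miR-196a-2-3p: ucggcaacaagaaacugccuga

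The classical target site of the family, in the 3′ UTR of Hoxb8 at chr11:96284888-96284909 (plus strand, GRCm38), is shown with the bases opposite the seed in capitals.
Hoxb8 site: cccaacaacaugaaACUGCCUa
Of its 22 bases, 21 pair with miR-196a-5p in the Watson-Crick manner and 1 forms a G:U wobble. With miR-196b-5p, 20 pair, 1 forms a wobble and 1 is unpaired. The site is background here, as no mRNA was measured.

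Values are RPM (reads per 1000000 miRNA reads), with 132483 to 2540577 reads per library and the fewest in the day 4 libraries. RPM is a share of the library, so fewer EVs carrying a miRNA and less of it per EV cannot be told apart. The labels number the replicates but do not say whether each is a separate mouse, and p-values cover no more than how these libraries scatter. The study's reporting summary describes 3 replicates from 1 spot for small RNA sequencing, without naming the samples meant. A miRNA was called at a limma adjusted p under 0.05 with a log2 fold change over 1 in size, on log2(RPM + 10), which understates changes of low miRNAs. miR-122-5p, the main hepatocyte miRNA, was at 1266 to 174591 RPM in liver surface EVs and 9.78 to 401 RPM in pelvic EVs on day 0, and no pelvic library of that day reached the liver surface ones. The ovary miRNA miR-202-5p was at 568 to 1008 RPM in normal ovary, and in tumor tissue it was at 619 RPM in 1 of 3 libraries and at most 2.07 RPM in the others.

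On day 0 all 3 miRNAs were lower on the liver surface than on the pelvic peritoneum. miR-196a-5p was at 113, 20.1, 12.6, 23.8 and 32.6 RPM in liver surface EVs, against 739, 602, 271, 752 and 568 RPM in pelvic EVs. The groups did not overlap, and liver surface library 1 stood above the other 4 of its group. The fitted log2 difference was -3.77 (SE 0.45, adjusted p = 0.00108), a ratio of 0.0734 that shrank to a log2 value of -2.84 with 50 RPM added in place of 10, and it had the smallest p of the 385 miRNAs tested.

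miR-196b-5p was at 267, 114, 76.4, 162 and 139 RPM in liver surface EVs, against 634, 595, 339, 583 and 566 RPM in pelvic EVs. Again no liver surface library reached the pelvic ones, although the groups lay closer, at -1.85 on the log2 scale (SE 0.32, adjusted p = 0.00767). miR-615-3p was at 84.5, 112, 53.5, 98.6 and 104 RPM in liver surface EVs, against 466, 313, 208, 338 and 328 RPM in pelvic EVs. Its groups did not overlap either, and its log2 fold change was -1.75 (SE 0.27, adjusted p = 0.00362).

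Thus 3 of 3 miRNAs were called lower on the liver surface, where 0.779% of all miRNAs tested were called lower. These 3 were all of the calls in that direction by limma without a block. DESeq2, and limma with the replicate number as a block, each called 5 miRNAs lower. Groups that did not overlap, with the liver surface lower, were found for 2.08% of all miRNAs tested. The study named these 3, and both miR-10b-3p and miR-10b-5p, as higher on the pelvic peritoneum from the same libraries. The count is therefore not independent evidence of the direction. Each was lower in the liver surface library than in the pelvic library of the same number in 5 of 5 pairs. With the replicate number as a block, 3 of 3 were still called, while the calls over all miRNAs numbered 21, against 6 without the block.

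The hepatocyte list (miR-122-5p, miR-122-3p and miR-802-5p), the red blood cell list and the endothelium list moved with the site, each being higher on the liver surface in 5 of 5 same-numbered pairs of day 0. On day 0 the hepatocyte list summed to 1298 to 175315 RPM in liver surface EVs and 9.78 to 401 RPM in pelvic EVs, with miR-122-3p and miR-802-5p at 0 in every pelvic library. The red blood cell list, led by miR-451a, summed to 3203 to 125542 RPM in liver surface EVs and 687 to 52281 RPM in pelvic EVs. The endothelium list, led by miR-126a-3p, summed to a median of 2166 RPM in liver surface EVs (881 to 14869) and 464 RPM in pelvic EVs (384 to 1686), and its part in the difference was not tested. The reads of the hepatocyte and red blood cell lists were also taken out and RPM was recomputed. The log2 fold changes were then -3.67 for miR-196a-5p, -1.71 for miR-196b-5p and -1.61 for miR-615-3p, and all 3 were called. Only the listed miRNAs were taken out and other reads of such cells stayed in, so the part of these cells was not tested. Liver surface library 1, which had the most miR-196a-5p and miR-196b-5p of its group, had the lowest sum of the hepatocyte and red blood cell lists in it. It also had the highest muscle list, at 23936 RPM, against 1615 to 6076 RPM in the other 4. This is 1 library, and the part of these lists in its values was not tested.

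The library names carry 2 series codes, NGS001 (replicates 1, 3 and 4) and NGS002 (replicates 2 and 5), whose meaning is not stated. The log2 fold change of miR-196a-5p was -3.58 in NGS001 alone and -4.05 in NGS002 alone, that of miR-196b-5p was -1.67 and -2.12, and that of miR-615-3p was -1.93 and -1.49. Within the series the direction was thus the same, but at these numbers of libraries only miR-196a-5p in NGS002 was called (adjusted p = 0.0301), and in NGS001 its adjusted p was 0.150. The call of miR-196b-5p was also lost without replicate 2, 4 or 5 (adjusted p = 0.0758, 0.0621 and 0.0798).

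**Figure D1:**
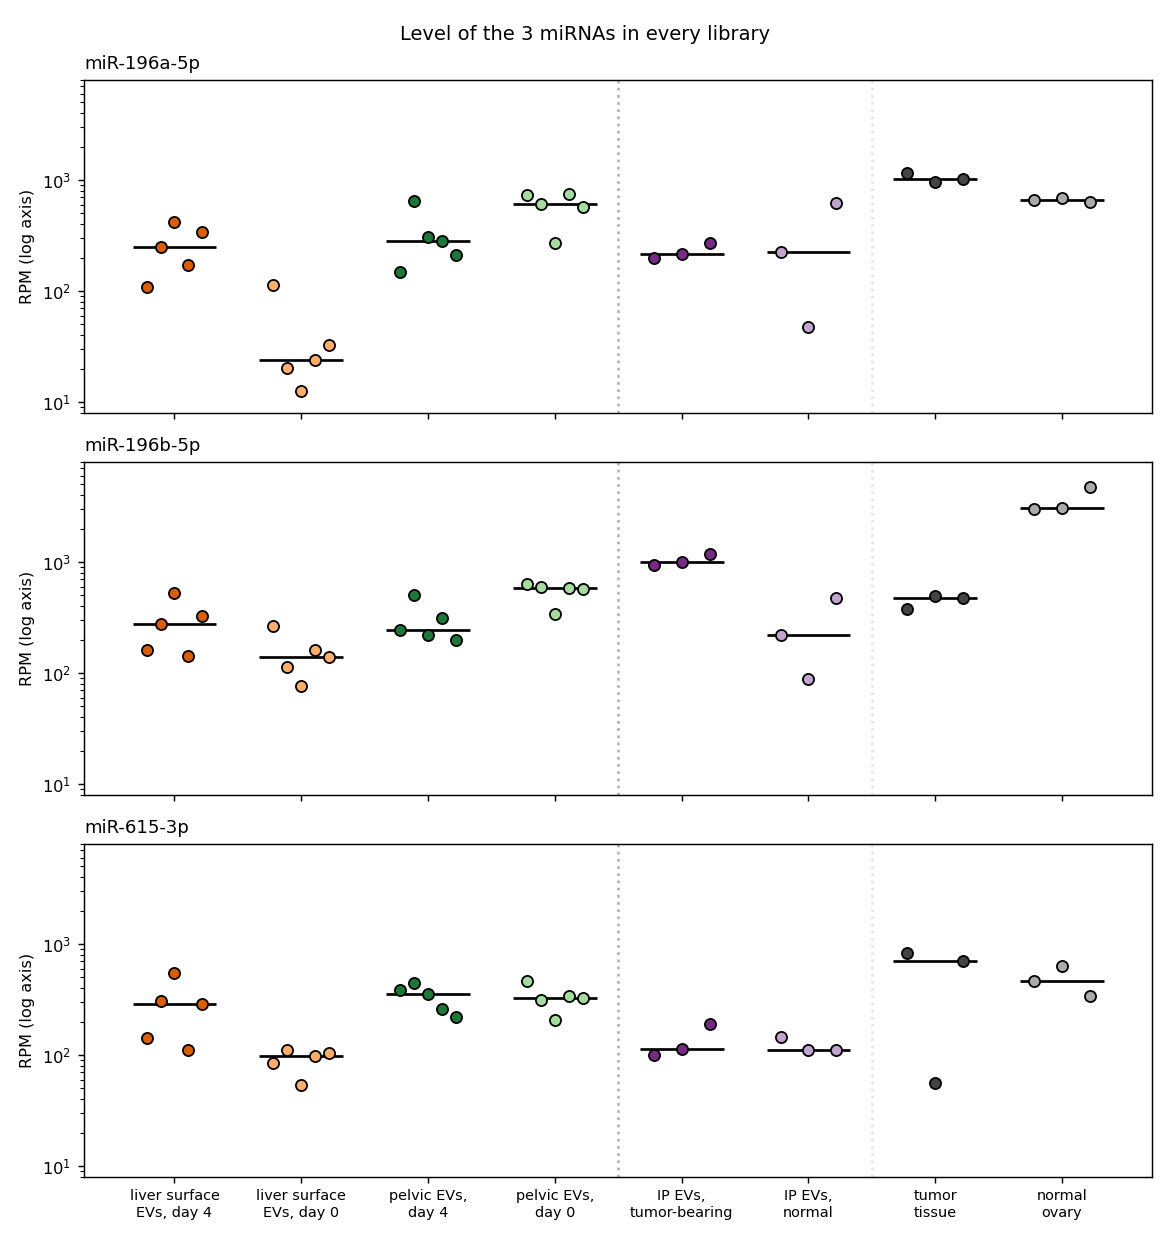
RPM on a log axis of each miRNA in every library of the 8 groups, where points are libraries in replicate order and lines are medians. The liver surface EVs of day 0 lie lowest, with medians of 23.8 RPM (miR-196a-5p), 139 RPM (miR-196b-5p) and 98.6 RPM (miR-615-3p), and normal ovary lies highest for miR-196b-5p, at a median of 3076 RPM.

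By day 4 the site difference was not detectable for any of the 3. miR-196a-5p was at 110, 248, 420, 171 and 342 RPM in liver surface EVs, against 148, 645, 309, 283 and 213 RPM in pelvic EVs. The groups overlapped, with a log2 fold change of -0.27 (95% interval -1.24 to 0.70, adjusted p = 0.947). miR-196b-5p was at 162, 274, 522, 141 and 327 RPM in liver surface EVs, against 242, 499, 219, 313 and 199 RPM in pelvic EVs. miR-615-3p was at 142, 305, 545, 110 and 289 RPM in liver surface EVs, against 384, 441, 355, 260 and 220 RPM in pelvic EVs. Both groups overlapped for each, and the log2 fold changes were -0.12 (-1.0 to 0.77) for miR-196b-5p and -0.42 (-1.33 to 0.50) in the case of miR-615-3p.

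No miRNA at all was called between the sites on day 4 by limma (0 of 424, or 0%), with 40 at an unadjusted p under 0.05. None of the 3 miRNAs was among those, nor was any of them called by edgeR, DESeq2 or with the replicate block, although DESeq2 called 9 other miRNAs and the block 7. In each series alone the log2 fold changes lay between -0.65 and -0.070. On that day the hepatocyte list was higher on the liver surface in 5 of 5 same-numbered pairs, at medians of 2411 and 17.1 RPM. So was the smooth muscle and fibroblast list, at 8753 and 4591 RPM, though the groups overlapped for both. The endothelium list was higher there in 4 of 5 pairs and the red blood cell list in 1 of 5. The part of these lists was not tested. The day 4 libraries held 132483 to 661582 reads, against 1022869 to 2540577 on day 0, and in the shallowest the 3 miRNAs rested on 41, 29 and 47 reads.

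On the liver surface miR-196a-5p rose by day 4, by 2.56 on the log2 scale (SE 0.48, adjusted p = 0.00190), a ratio of 5.88. The log2 value was 1.76 with 50 RPM added in place of 10, and 3.20 without replicate 1. Of the 5 libraries of day 4, 4 lay above all 5 of day 0, the exception being replicate 1, at 110 RPM on day 4 and 113 RPM on day 0. miR-615-3p also rose there, by 1.35 on the log2 scale (SE 0.42, adjusted p = 0.0337), and was higher on day 4 in 5 of 5 same-numbered libraries. miR-196b-5p had a log2 fold change of 0.83 (95% interval -0.077 to 1.73, adjusted p = 0.192) and did not pass.

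Hence 2 of 3 were called higher on the liver surface by day 4, where 15.5% of all 407 miRNAs tested were called higher. The median log2 fold change of all of these was 0.20, and median-of-ratios scaling moved it to -0.08. Under that scaling miR-615-3p was at 1.00 with an adjusted p of 0.0635, and its call was lost under 16 of 28 alternatives, such as leaving out day 4 replicate 3 (1.06, adjusted p = 0.0795) or day 0 replicate 3 (1.19, adjusted p = 0.0631). The call of miR-196a-5p was lost under 1 of 28, NGS001 alone (2.21, adjusted p = 0.0766), and in NGS002 alone its log2 fold change was 3.07. In NGS001 and NGS002 alone miR-615-3p was at 1.32 and 1.38, and miR-196b-5p at 0.58 and 1.19.

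The hepatocyte list of the liver surface EVs summed to a median of 2411 RPM on day 4 (95.7 to 22272) and 22829 RPM on day 0. The muscle list was lower on day 4 in 5 of 5 same-numbered libraries, with a median of 1329 RPM, against 5239 RPM on day 0. The hepatocyte, endothelium, leukocyte, epithelium, and smooth muscle and fibroblast lists were each lower in 4 of 5, and the red blood cell list in 3 of 5. The part of these lists was not tested. With the reads of the hepatocyte and red blood cell lists taken out, the rise of miR-196a-5p was 2.52 on the log2 scale and that of miR-615-3p 1.27, both called. Other reads of such cells stayed in, so the part of these cells was not tested.

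On the pelvic peritoneum, 0 of 3 were called by limma between day 4 and day 0, where 24.1% of 403 miRNAs were called in either direction. miR-196a-5p and miR-196b-5p had log2 fold changes of -0.94 (95% interval -1.81 to -0.073, adjusted p = 0.107) and -0.91 (-1.58 to -0.24, adjusted p = 0.0416, short of the fold threshold). Both had an unadjusted p under 0.05, and both were called by edgeR (-1.20 and -1.20) and DESeq2 (-1.21 and -1.18), and under median-of-ratios scaling (-1.26 and -1.23). That scaling moved the median of all miRNAs tested to -0.10, against 0.18. Without day 4 replicate 2, the highest in both, limma called both too (-1.23 and -1.11), and likewise without day 0 replicate 3, the lowest in both (-1.19 and -1.07). miR-615-3p had a log2 fold change of 0.0066 (-0.64 to 0.65), and its groups overlapped. In NGS001 and NGS002 alone miR-196a-5p was at -1.15 and -0.64, miR-196b-5p at -0.95 and -0.85, and miR-615-3p at 0.035 and -0.036. The red blood cell list was higher on the pelvic sheets of day 4, at 26019 to 99362 RPM, against 687 to 52281 RPM on day 0, and with its reads and those of the hepatocyte list taken out the values were -0.87 for miR-196a-5p and -0.84 for miR-196b-5p. The muscle list was lower on day 4 in 5 of 5 same-numbered pairs, with a median of 1177 RPM (655 to 4406), against 4583 RPM on day 0 (2438 to 10414). So was the epithelium list, with a median of 945 RPM (797 to 1934), against 2557 RPM on day 0 (1829 to 3414), and the leukocyte, endothelium and smooth muscle lists were lower in 5 of 5 pairs too. The part of these lists was not tested.

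Whether the site difference itself changed between the days was tested as an interaction. This test and that of the days on the liver surface use the day 0 libraries from which the study named these miRNAs. Neither is therefore independent of that choice. For miR-196a-5p the site difference was higher on day 4 than on day 0 by 3.50 on the log2 scale (SE 0.65, adjusted p = 0.0103), and it had the smallest p of the 446 miRNAs tested, of which 0.448% were called. miR-196b-5p had 1.74 (SE 0.52, adjusted p = 0.349) and miR-615-3p 1.34 (SE 0.51, adjusted p = 0.659), neither of which passed, although DESeq2 called miR-196b-5p too (1.78, adjusted p = 0.0406). Without replicates 3, 4 or 5 the call of miR-196a-5p was lost (3.36, 3.42 and 3.27, adjusted p = 0.0515, 0.155 and 0.143), and in NGS001 alone it was 3.36 (adjusted p = 0.448).

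**Figure D2:**
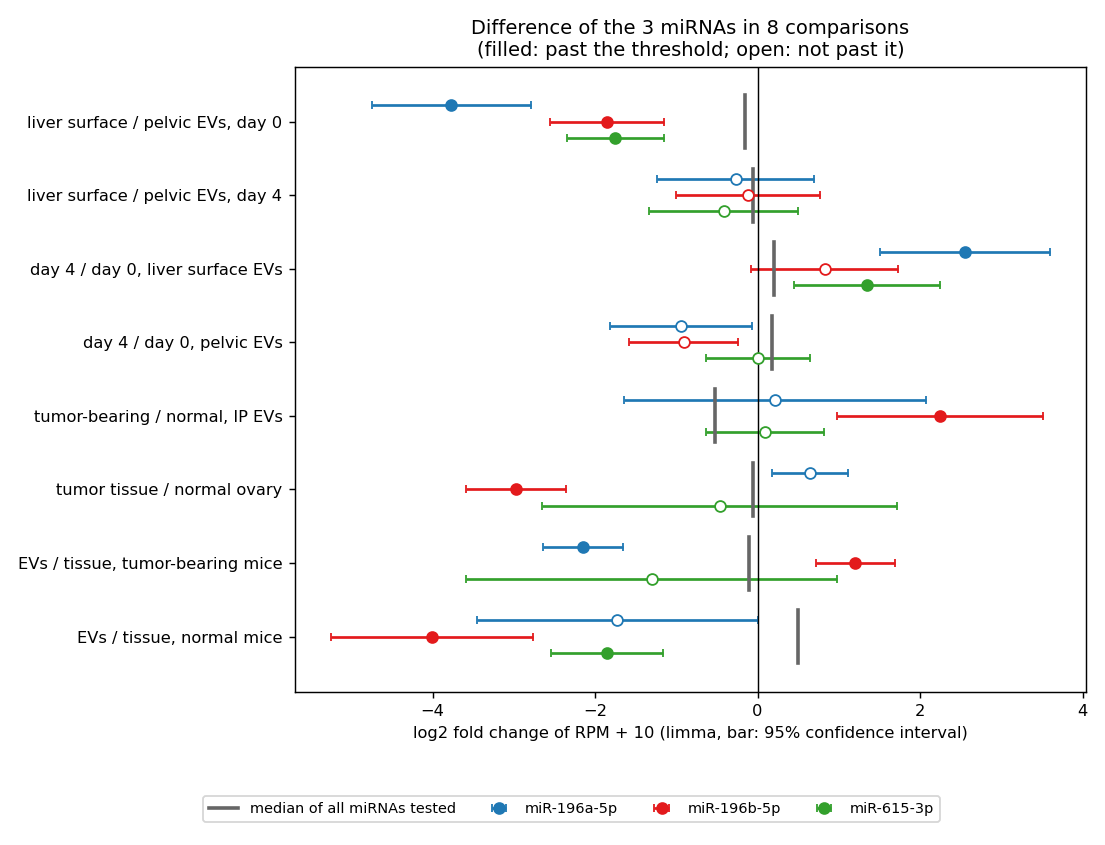
Log2 fold change of RPM + 10 with its 95% interval for the 3 miRNAs in 8 comparisons, where filled points were called and grey ticks mark the median of all miRNAs tested. miR-196a-5p differs most between the sites on day 0 (-3.77), and miR-196b-5p has opposite signs in EVs (2.24) and tissue (-2.97) of tumor-bearing against normal mice.

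The list of Hox-cluster miRNAs held 11 names, of which 7 passed the filter in each comparison, and the other strands of the 3 miRNAs did not. Beside the 3 these were both strands of miR-10a and of miR-10b, which are made near the Hox4 genes. On day 0 all 4 had negative log2 fold changes too, though by limma without the block 0 of 4 were called. In the paired fit (replicate block), which the pairing of the sites calls for, both strands of miR-10b were called lower on the liver surface. miR-10b-5p, the main product of its hairpin, was at 10112 ± 5259 RPM in liver surface EVs and 30809 ± 10412 RPM in pelvic EVs (SD, n = 5 each), or -1.73 on the log2 scale (adjusted p = 0.0688 without the block and 0.00460 with it). Its other strand miR-10b-3p had -1.17 (adjusted p = 0.286 and 0.0219), and each was lower in 5 of 5 same-numbered pairs. miR-10b-5p was also called by edgeR (adjusted p = 0.0334), DESeq2 (0.000104) and under median-of-ratios scaling (0.0225), and miR-10b-3p by DESeq2 (0.00587).

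The median log2 fold change of the 7 was -1.73 on day 0, where that of all miRNAs was -0.15, and -1.04 on day 4, where that of all miRNAs was -0.06. On day 4 miR-10b-5p was at 5242 ± 3690 RPM in liver surface EVs and 14742 ± 4647 RPM in pelvic EVs (SD, n = 5 each), or -1.68 on the log2 scale (adjusted p = 0.202 without the block and 0.00504 with it). It was lower in 5 of 5 pairs on that day as well, whereas none of the 3 miRNAs was called then with the block. Its interaction was 0.050 (95% interval -1.21 to 1.31), against 3.50 for miR-196a-5p.

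**Figure D3:**
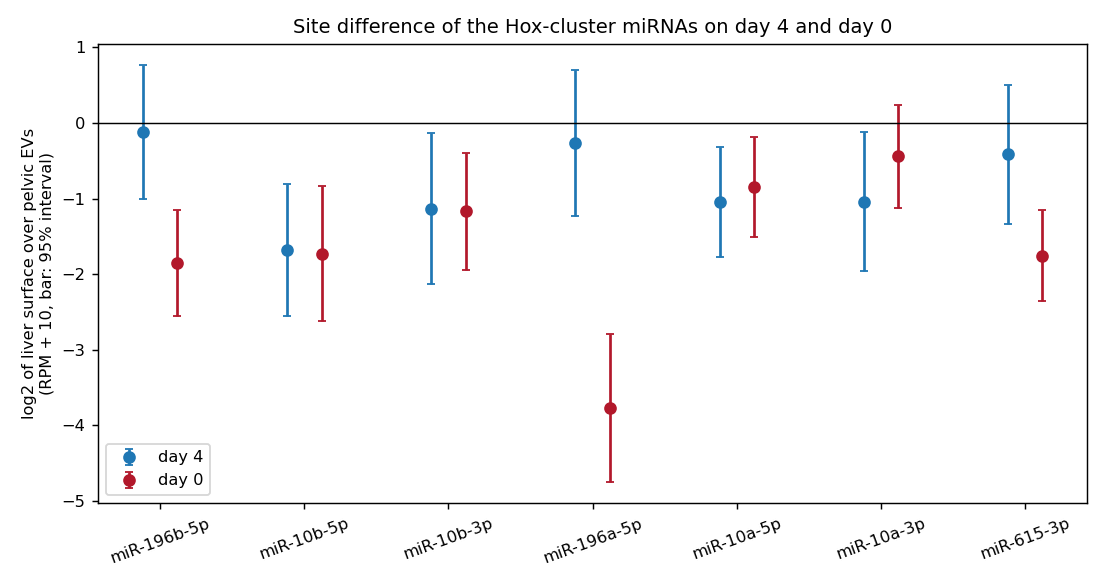
Log2 of liver surface over pelvic EVs with 95% intervals for the 7 Hox-cluster miRNAs tested, day 4 in blue and day 0 in red. The 3 miRNAs lie at -0.12 to -0.42 on day 4 and at -1.75 to -3.77 on day 0, whereas miR-10b-5p lies at -1.68 on day 4 and -1.73 on day 0.

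In the IP model the 2 forms of miR-196 parted. miR-196b-5p was at 945, 1008 and 1169 RPM in EVs of tumor-bearing mice, against 219, 87.7 and 472 RPM in EVs of normal mice. The groups did not overlap, as was so in this direction for 23.8% of all miRNAs, and the normal EVs were the more scattered. The log2 fold change was 2.24 (SE 0.54, adjusted p = 0.00889), and 16.1% of 378 miRNAs were called higher. miR-196a-5p was at 199, 216 and 269 RPM in EVs of tumor-bearing mice, against 224, 47.3 and 615 RPM in EVs of normal mice, so that the normal libraries spanned the tumor-bearing ones. miR-615-3p was at 99.0, 113 and 190 RPM in EVs of tumor-bearing mice, against 145, 110 and 110 RPM in EVs of normal mice. Neither was called, with log2 fold changes of 0.22 (95% interval -1.64 to 2.07) and 0.09 (-0.64 to 0.81), and thus 1 of 3 was.

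The median log2 fold change of all miRNAs tested in these EVs was -0.53, and median-of-ratios scaling moved it to -0.04. Without replicate 1 the call of miR-196b-5p was lost (2.34, adjusted p = 0.0818), and without normal EV library 2, the lowest, the value was 1.65 (adjusted p = 0.00980). Normal EV library 3, the highest of its group in both miR-196 forms, held 113085 RPM of miR-451a, against 2903 to 5137 RPM in the other normal libraries. With the reads of the hepatocyte and red blood cell lists taken out, miR-196b-5p was at 2.19 (adjusted p = 0.0112). Other reads of such cells stayed in, and the part of these cells was not tested. Of the 8 marker lists, 5 were lower in EVs of tumor-bearing mice with no overlap, as were 44.7% of all miRNAs tested. The leukocyte list summed to 3830 to 4082 RPM in EVs of tumor-bearing mice and 11964 to 36909 RPM in EVs of normal mice. The epithelium list summed to 299 to 609 RPM in EVs of tumor-bearing mice and 2006 to 3856 RPM in EVs of normal mice. The endothelium list was at 43.5 to 91.8 RPM in EVs of tumor-bearing mice and 397 to 1155 RPM in EVs of normal mice. The muscle list summed to 1080 to 2131 RPM in EVs of tumor-bearing mice and 3780 to 8054 RPM in EVs of normal mice. The smooth muscle and fibroblast list was at 5066 to 9002 RPM in EVs of tumor-bearing mice and 9210 to 34212 RPM in EVs of normal mice. Their part in the difference of miR-196b-5p was not tested.

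In tissue the direction of miR-196b-5p was the opposite. It was at 373, 498 and 471 RPM in tumor tissue, against 3028, 3076 and 4781 RPM in normal ovary, where it ranked 30th to 40th among all miRNAs of a library. The groups did not overlap, as was so for 48.7% of all miRNAs. The log2 fold change was -2.97 (SE 0.26, adjusted p = 0.000917), the third smallest p of 357 miRNAs, of which 10.4% were called lower. Without replicate 1 the adjusted p was 0.0680. The ovary list was at 0, 2.07 and 630 RPM in the tumor tissues, in the order of the values above, against 581 to 1039 RPM in normal ovary. The endothelium, muscle, and smooth muscle and fibroblast lists were lower in tumor tissue and the leukocyte list higher, all with no overlap, and the part of these lists was not tested.

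miR-196a-5p was at 1158, 957 and 1012 RPM in tumor tissue, against 660, 685 and 639 RPM in normal ovary. Its groups did not overlap either, and the log2 fold change of 0.64 (SE 0.20, adjusted p = 0.0483) was short of the fold threshold. miR-615-3p was at 838, 55.8 and 709 RPM in tumor tissue, against 462, 635 and 339 RPM in normal ovary. Tumor tissue 2 was far below all other tissue, and it also had the highest hepatocyte list (2770 RPM, against 9.51 and 150 RPM in the other tumors) and epithelial list (15253 RPM, against 3537 and 1934 RPM), whose part in the low value was not tested. The log2 fold change of miR-615-3p was -0.47 with this library and 0.72 without it (adjusted p = 0.730 and 0.0782).

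The tumor effect in EVs was compared with that in tissue in 1 fit. For miR-196b-5p it was higher in EVs by 5.21 on the log2 scale (SE 0.64, adjusted p = 6.84e-05), where 41.2% of 422 miRNAs were called in either direction and the median of all was -0.50. For miR-196a-5p the difference was -0.43 (95% interval -2.34 to 1.49) and for miR-615-3p 0.56 (-1.79 to 2.90), and neither passed. Of the other Hox-cluster miRNAs, miR-10b-5p had 2.09 (adjusted p = 0.00902) and miR-10b-3p 1.26 (adjusted p = 0.0133).

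EVs were next set against tissue of the same condition. RNA came from different kits in EVs and tissue, and the EVs came from the peritoneum. The kit, the place and the kind of sample therefore cannot be told apart. In both conditions the endothelium, epithelium, and smooth muscle and fibroblast lists were lower in EVs with no overlap, and the leukocyte list higher. The endothelium list summed to 43.5 to 91.8 RPM in EVs of tumor-bearing mice, against 21093 to 26262 RPM in tumor tissue. In tumor-bearing mice the red blood cell list was higher too, and in normal mice the ovary list was lower. The part of these lists was not tested. In tumor-bearing mice miR-196a-5p was lower in EVs than in tumor tissue (-2.15, SE 0.21, adjusted p = 0.000288), while miR-196b-5p was higher in EVs (1.20, SE 0.20, adjusted p = 0.00261). In both cases the groups did not overlap, as for 63.2% of all miRNAs. Thus 2 of 3 were called, where 47.3% of 351 miRNAs were. miR-615-3p, with a log2 fold change of -1.30 (95% interval -3.59 to 0.98), was called only by edgeR (-2.23) and DESeq2 (-2.0), or without tumor tissue 2 (-2.49, adjusted p = 0.000661).

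In normal mice 2 of 3 were called, where 59% of 390 miRNAs were. miR-196b-5p was lower in EVs than in ovary (-4.01 on the log2 scale, SE 0.54, adjusted p = 0.000424), and so was miR-615-3p (-1.86, SE 0.30, adjusted p = 0.000934). The median of all miRNAs tested was 0.50, and median-of-ratios scaling moved it to 0.04. miR-196a-5p had a log2 fold change of -1.72 (95% interval -3.45 to 0.0057, adjusted p = 0.0705). It was called with the replicate block (adjusted p = 0.0411), in 1 fit of all IP libraries (adjusted p = 0.0244), under median-of-ratios scaling (-2.28, adjusted p = 0.0440) and without normal EV library 3, the highest (-2.53, adjusted p = 0.00223).

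Over the 8 groups, the 3 miRNAs were ordered differently. miR-196a-5p was highest in tumor tissue (median 1012 RPM), and then came normal ovary (660), pelvic EVs of day 0 (602) and day 4 (283), liver surface EVs of day 4 (248), EVs of normal mice (224) and of tumor-bearing mice (216), and liver surface EVs of day 0 (23.8). Of these neighbours, tumor tissue and normal ovary did not overlap, nor did EVs of tumor-bearing mice and liver surface EVs of day 0. miR-196b-5p was highest in normal ovary (3076), and then came EVs of tumor-bearing mice (1008), pelvic EVs of day 0 (583), tumor tissue (471), liver surface EVs (274) and pelvic EVs (242) of day 4, EVs of normal mice (219) and liver surface EVs of day 0 (139). Only the first 3 of that order did not overlap their neighbours in the order, tumor tissue aside, which overlapped pelvic EVs of day 0. For miR-615-3p all neighbours overlapped, with medians from 709 RPM in tumor tissue to 98.6 RPM in liver surface EVs of day 0. Levels of different miRNAs are not compared here beyond the near-identical miR-196 pair.

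That pair allows a share of reads within each library, which does not depend on the library total, while the log2 ratio tested was that of RPM + 10 and is drawn toward 0 where both forms are low. The share of miR-196a-5p among the reads of both was 29.8%, 15%, 14.2%, 12.9% and 19.1% in liver surface EVs of day 0, against 53.8%, 50.3%, 44.4%, 56.3% and 50.1% in pelvic EVs. The groups did not overlap, and the difference in mean log2 ratio was -1.91 (exact two-sided permutation test, p = 0.00794, the smallest that 5 against 5 allows, adjusted p = 0.0317 over 8 comparisons). It was -2.29 as a ratio of reads with nothing added, an alternative chosen after the data were seen, and -1.24 with 50 RPM added, with the same adjusted p. Thus the liver surface differed more in miR-196a-5p than in its near-twin. In the library with the most miR-196 reads of that group (400), the share of 29.8% had an exact (Clopper-Pearson) 95% interval of 25.3% to 34.5%, which covers counting error only.

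On day 4 the share was 40.4%, 47.5%, 44.6%, 54.8% and 51.1% in liver surface EVs, against 37.9%, 56.4%, 58.6%, 47.5% and 51.7% in pelvic EVs. The sites then overlapped, and the difference in mean log2 ratio was -0.15 (exact p = 0.540, adjusted p = 0.617). On the liver surface the ratio was higher on day 4 than on day 0 by 1.73 (exact p = 0.00794, adjusted p = 0.0317; 2.10 as a ratio of reads and 1.07 with 50 RPM added), with no overlap, and on the pelvic peritoneum the difference was -0.03 (exact p = 0.881, adjusted p = 0.881). With any replicate number left out of both groups the adjusted p of both called ratios was 0.114, as 4 against 4 libraries allow no smaller one here, and in pairs (replicate block) it was 0.133, from the smallest p that a sign-flip test of 5 pairs can give. In NGS001 and NGS002 alone the difference between the sites on day 0 was -1.90 and -1.93.

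**Figure D4:**
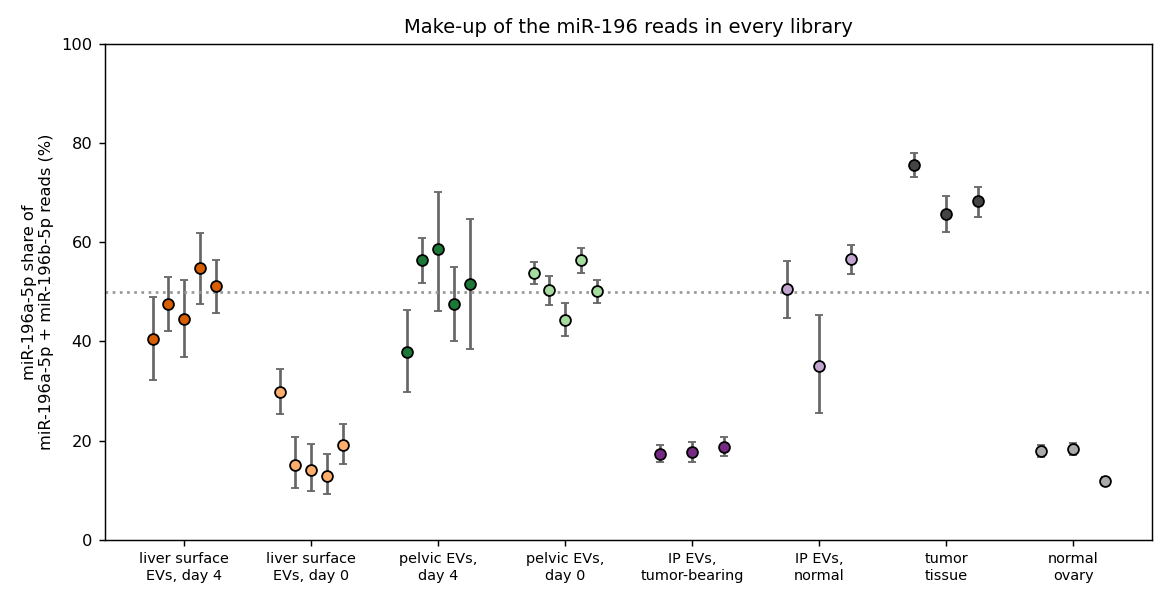
Percentage of miR-196a-5p among all miR-196a-5p and miR-196b-5p reads in every library, with exact 95% binomial intervals. Liver surface EVs of day 0, EVs of tumor-bearing mice and normal ovary lie at 11.8% to 29.8%, tumor tissue at 65.8% to 75.6%, and the other groups at 35.1% to 58.6%.

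In the IP model the share was 17.4%, 17.6% and 18.7% in EVs of tumor-bearing mice, against 50.5%, 35.1% and 56.6% in EVs of normal mice. It was 75.6%, 65.8% and 68.2% in tumor tissue, against 17.9%, 18.2% and 11.8% in normal ovary. Hence EVs of tumor-bearing mice had far less miR-196a-5p per miR-196b-5p than the tumor tissue, and EVs of normal mice had more than the ovary. The differences in mean log2 ratio were -2.03 between the EVs, 3.61 between the tissues, -3.36 for EVs against tissue in tumor-bearing mice and 2.28 in normal mice. None of these 4 pairs of groups overlapped, and each exact p was 0.1, the smallest that 3 against 3 allows (adjusted p = 0.133), so no call could be made.

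The other strands of the hairpins were rare, but for miR-196a they name the gene. Where no read was seen, the limit given is that of 3 reads, which like the intervals covers counting error only. Normal ovary held 25 reads of miR-196a-1-3p, in 3 of 3 libraries, and 4 of miR-196a-2-3p, so that miR-196a-1-3p made up 86.2% of these 29 pooled reads (exact 95% interval 68.3% to 96.1%). Tumor tissue held 0 and 5 reads of these, the 5 in 3 of 3 libraries. The 0 of 1966728 reads allows up to 1.53 RPM of miR-196a-1-3p, against 7.42 RPM in ovary. Pelvic EVs of day 0 held 0 reads of miR-196a-1-3p (up to 0.454 RPM) and 12 of miR-196a-2-3p, in 4 of 5 libraries. Pelvic EVs of day 4 held 0 and 3 reads of these. Liver surface EVs held 0 and 2 reads on day 4, and 2 and 0 reads on day 0. EVs of normal mice held 2 reads of miR-196a-1-3p, in 2 of 3 libraries, and 0 of miR-196a-2-3p (up to 1.20 RPM). EVs of tumor-bearing mice held none of either among 4006289 reads (up to 0.749 RPM), though they held 899 reads of miR-196a-5p. These counts were below the filter and were not tested, and a strand that is degraded after processing need not be in step with its gene.

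For the other hairpins, miR-196b-3p was read in 3 of 3 EV libraries of tumor-bearing mice, at 2.52 to 5.53 RPM, and had 0 reads in EVs of normal mice (up to 1.20 RPM), alongside the higher miR-196b-5p there. In normal ovary, where miR-196b-5p was highest, it was at 0 to 1.93 RPM. miR-615-5p was at 4.13 to 10.9 RPM in tumor tissue and at 0 to 0.97 RPM in normal ovary. Tumor tissue 2 had the lowest level of it among the tumors, as it had of miR-615-3p. The tumors held only 17 reads of miR-615-5p together, and 1 read was 2.07 RPM in tumor tissue 2, so this order is uncertain.

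**Figure D5:**
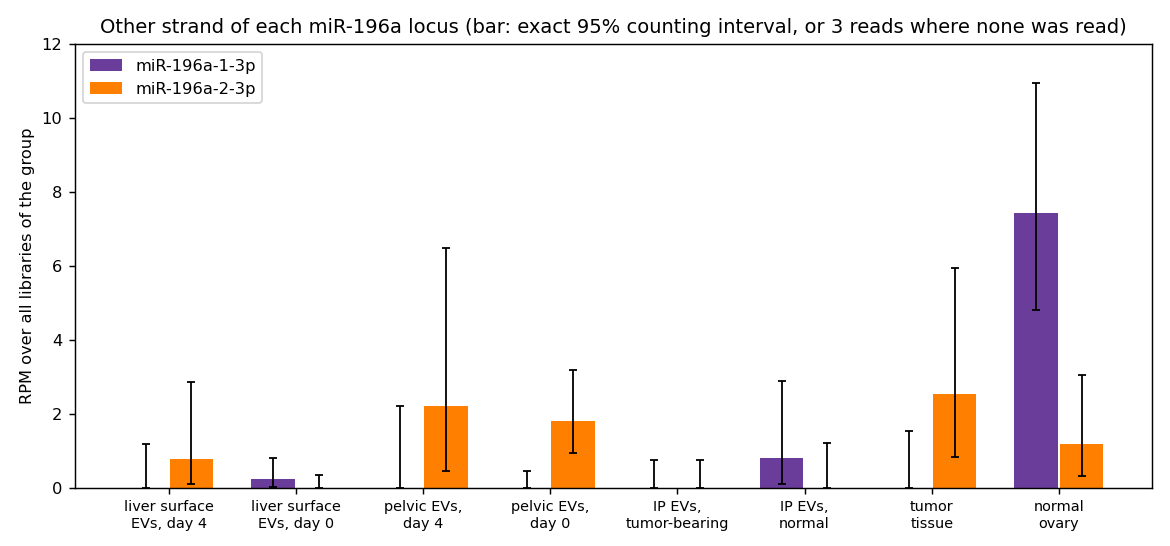
RPM of miR-196a-1-3p and miR-196a-2-3p over the pooled reads of each group, with exact 95% Poisson intervals for counting error, or a bar to the level of 3 reads where none was seen. Normal ovary has 7.42 RPM of miR-196a-1-3p, while tumor tissue (2.54 RPM) and pelvic EVs of day 0 (1.82 RPM) have miR-196a-2-3p alone.

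Across the 20 OT libraries, taken without regard to group, the 3 miRNAs were most like each other. Among 394 other miRNAs, the one with the highest Pearson r of log2(RPM + 10) to miR-196a-5p was miR-196b-5p (0.91), and then came miR-615-3p (0.86) and miR-224-5p (0.74). For miR-615-3p they were miR-196a-5p (0.86), miR-196b-5p (0.82) and miR-224-5p (0.81). For miR-196b-5p the third, after both others, was miR-10b-3p (0.68). With the group means taken out, r was 0.88 for the miR-196 pair, 0.58 between miR-196a-5p and miR-615-3p, and 0.77 between miR-196b-5p and miR-615-3p. That was lower for miR-196a-5p and miR-615-3p than the r of miR-224-5p to each of them (0.67 and 0.69). Over the 12 IP libraries r was 0.43, 0.54 and 0.37 for the 3 pairs, while miR-224-5p had 0.59 to miR-196a-5p and miR-10b-3p had 0.69 to miR-196b-5p, above the other members. These are descriptions over libraries that share site, day and depth, and reads of the miR-196 pair may have been assigned to either.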

How the data were processed

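Small RNA-seq values of 32 libraries were used, grouped by the sample labels. The authors' reads were trimmed and mapped in CLC Genomics Workbench 9.5.3 against miRBase 22, at most 2 mismatches being allowed, and the values deposited are RPM for 1513 miRNAs. The authors' own test was that of DESeq2 1.30.0. Every deposited RPM value was a whole multiple of 1 read (100% within 0.001), so whole reads were recovered.

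Differences were fitted with limma 3.58.1 (R 4.3.3, with trend, two-sided) after adding a pseudocount of 10 RPM and taking log2. A miRNA was tested if it reached 10 RPM in a number of libraries equal to the smaller group, and p-values were adjusted by Benjamini-Hochberg over every miRNA tested. The interactions used 4 groups in 1 fit. Alternatives were edgeR 4.0.16 and DESeq2 1.42.0 on the recovered reads, other pseudocounts (1 and 50 RPM), other filters (none and 100 RPM), scaling by median of ratios, a block for the replicate number, 1 fit per model, the library series, and leaving out single libraries or numbers. Taking out the reads of the hepatocyte and red blood cell lists, and the read share and read ratio without a pseudocount, were added after the data were seen. The ratio was tested by exact permutation in SciPy 1.17.1. The scripts were tested on simulated data.

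Same-numbered libraries were taken to be paired where each pair's deviations from the group means correlated at over 0.1. This held for the sites on day 0 (0.397 to 0.704) and day 4 (0.119 to 0.737), the days on the pelvic peritoneum (0.189 to 0.631), the IP EVs (0.169 to 0.271) and EVs against tissue in normal mice (0.182 to 0.255). It did not hold for the days on the liver surface, the IP tissue and EVs against tissue in tumor-bearing mice. The main fits and the permutation tests used no pairing, and the block was an alternative only. Tumor-bearing and normal mice are different animals, so in the IP EVs a shared number cannot mean the same mouse. The rule was met there all the same, so meeting it does not show that a number marks the same mouse.

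The miRNAs and lists were chosen with earlier results of these data known. Named were the 3 miRNAs, their other strands, miR-10a and miR-10b, the leading marker of a list beside a result, miRNAs sharing a seed, and the 3 with the most similar profile to each. Sequences were from RefSeq and gene positions from GENCODE M21 (GRCm38). The authors mapped to no genome.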

Additional observations from a re-analysis of the deposited data

Results flagged for a closer look

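The liver surface EV library 1 of day 0 stood apart in miR-196a-5p, at 113 RPM, against 12.6 to 32.6 RPM in the other 4. The pelvic EV library 3 of day 0 stood apart in miR-196b-5p, at 339 RPM, against 566 to 634 RPM in the other 4. In both the gap to the next library was over 0.71 of the range of the group (Dixon's limit for 5 values). With 16 sets of 5 values examined, chance flags about 1 in 20 of them.

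The site difference of miR-196a-5p was higher on day 4 than on day 0 by 3.50 on the log2 scale by the interaction. The tumor effect on miR-196b-5p was higher in EVs than in tissue by 5.21 on the log2 scale by the interaction, with all 3 EV libraries of tumor-bearing mice above all 3 of normal mice and all 3 tumor tissues below all 3 ovaries.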

How the results depend on the processing

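The number of the 3 miRNAs called kept within 1.5 times its value except as follows. On day 0 between the sites it was 0 in NGS001 alone and 1 in NGS002 alone, against 3. On the pelvic peritoneum between the days it was 2 under median-of-ratios scaling, edgeR and DESeq2, against 0, and 0 to 2 with libraries left out. On the liver surface between the days it was 1 with no filter, under median-of-ratios scaling and in NGS002 alone, 0 in NGS001 alone, and 1 to 2 with libraries left out, against 2. For the site by day interaction it was 2 in DESeq2, 0 in NGS001 alone and 0 to 1 with libraries left out, against 1. For IP EVs and for IP tissue it was 0 to 1 with libraries left out, against 1. The cause was not tested. Median-of-ratios scaling also evened out the calls over all miRNAs, to 45 higher and 37 lower on the liver surface between the days, against 63 and 12, to 58 and 51 on the pelvic peritoneum, against 76 and 21, and to 83 and 94 in IP EVs, against 61 and 136. On day 4, libraries of 132483 to 661582 reads limit the precision.

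Signs turned for values that were not called. Between the sites on day 4, miR-196b-5p was at 0.077 in edgeR and 0.010 in DESeq2, and ranged from -0.45 to 0.13 with libraries left out, and miR-196a-5p from -0.50 to 0.021. On the pelvic peritoneum miR-615-3p was at -0.31 under median-of-ratios scaling and in DESeq2, at -0.32 in edgeR and at -0.036 in NGS002 alone, and ranged from -0.18 to 0.15. In IP EVs miR-196a-5p was at -0.077 in edgeR and ranged from -0.70 to 1.03, and miR-615-3p from -0.24 to 0.39. In IP tissue miR-615-3p was at 0.17 in edgeR and 0.14 in DESeq2, and ranged from -1.22 to 0.95. For the tumor effect in EVs against tissue, miR-196a-5p was at 0.12 under median-of-ratios scaling and ranged from -1.39 to 0.38, and miR-615-3p from -0.83 to 1.51.

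The log2 ratio of miR-196a-5p to miR-196b-5p, with libraries left out, ranged from -2.09 to -1.72 between the sites on day 0, from -0.33 to 0.0066 between the sites on day 4, from 1.51 to 2.00 between the days on the liver surface and from -0.24 to 0.18 on the pelvic peritoneum, where it was 0.22 in NGS002 alone. With the replicate block it was -1.91 between the sites on day 0 and 1.73 between the days on the liver surface, both at an adjusted p of 0.133. As a share or a log2 ratio of reads with no pseudocount, the same 2 ratios were called (adjusted p = 0.0317). Between the days on the liver surface, where the numbers were not taken to pair libraries, 1 of 3 miRNAs was called with the block, and 2 of 5 day 4 libraries were most like the day 0 library of their own number. Called values moved by over 1.5 times in a few further cases. The site by day value of miR-196a-5p was 2.61 with 50 RPM added. Without normal EV library 2, miR-196b-5p was at -3.42 for EVs against tissue in normal mice and at 4.62 for the tumor effect in EVs against tissue (5.81 in edgeR). For EVs against tissue in normal mice miR-615-3p was at -2.62 in edgeR and -2.56 in DESeq2. Apart from miR-196a-5p for EVs against tissue in normal mice, and miR-615-3p for the days on the liver surface, the block changed no call of the 3 miRNAs.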
